A study of Mus musculus with 14 samples.

Results

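The Ighv genes are the variable (V) gene segments of the mouse immunoglobulin heavy chain locus on chromosome 12. They were taken as all genes whose symbol starts with Ighv in the gene table of the deposited count files, which gave 185 of 32285 genes with 183 different symbols in 16 families. Of these, 120 were annotated as functional segments and 65 as pseudogene segments, and 118 had at least 1 UMI (unique molecular identifier, 1 counted transcript molecule) in the cells kept while 67 had none.

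White nodules came from 7 mice, termed cKO, that were homozygous for a floxed Eif3e allele (fl/fl) and also carried Cγ1-Cre and the Rosa26-YFP LSL reporter. Cre is driven from the Ig γ1 constant region locus in these mice and removes Eif3e, a subunit gene of the translation initiation complex eIF3, in activated B cells. Single-cell RNA and V(D)J libraries were made from every nodule, 1 of each. The V(D)J libraries held B cell receptor (BCR) transcripts for mouse 27 (liver, 12 months), mouse 29 (lung, 12 months), mouse 31 (spleen, 13 months), mouse 33 (thymus, 16 months) and mouse 34 (lung and thymus, 9 months), and T cell receptor (TCR) transcripts for mouse 30 (liver, 14 months) and mouse 32 (spleen, 12 months). The nodule of mouse 27 was a secondary tumor grown in a Rag2-/- recipient, and the others were primary. Each mouse gave 1 nodule sample, called its nodule below, and there was no control nodule among the samples analysed here, so the mouse is the replicate. The sample of mouse 34 is labelled with both lung and thymus, and the site of each of its cells is not given.

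A B cell makes its heavy chain by joining 1 V segment to a D and a J segment, which removes the DNA between them on that allele. All daughters of the cell inherit the joined segment, so a B cell clone carries 1 productive V segment and 1 CDR3, the stretch that spans the V-D-J junction and contacts antigen. V segments of a family share much of their sequence, and somatic hypermutation, which takes place in germinal centers, changes bases in the joined V segment.

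The clone of each BCR nodule was defined from contigs, the assembled receptor transcripts. It held all cells with the commonest heavy chain (same V segment, J segment and CDR3 nucleotides) or with the light chain most often paired with it. The clone segments were Ighv1-75 in mouse 27 (1782 clone cells), Ighv1-85 in mouse 29 (323 cells), Ighv1-18 in mouse 31 (3974 cells), Ighv9-3 in mouse 33 (1084 cells) and Ighv9-1 in mouse 34 (1416 cells). All 5 were annotated as functional segments. The commonest heavy chain CDR3 of each clone is shown because it is the mark by which the clone was found. The CDR3 is in capitals with 12 bases of the contig on each side, 5′ to 3′.
mouse 27, Ighv1-75: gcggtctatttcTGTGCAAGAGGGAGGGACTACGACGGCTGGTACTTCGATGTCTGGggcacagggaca
mouse 29, Ighv1-85: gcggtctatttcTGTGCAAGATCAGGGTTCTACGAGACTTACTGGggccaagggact
mouse 31, Ighv1-18: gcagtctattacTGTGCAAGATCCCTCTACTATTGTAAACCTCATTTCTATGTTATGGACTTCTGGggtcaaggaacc
mouse 33, Ighv9-3: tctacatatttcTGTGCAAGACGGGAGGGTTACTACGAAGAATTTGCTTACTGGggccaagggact
mouse 34, Ighv9-1: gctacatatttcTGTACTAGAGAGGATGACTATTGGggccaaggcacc

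The CDR3 measured 45, 33, 54, 42 and 24 bases in mice 27, 29, 31, 33 and 34. The V part of the contigs, 285 bases from framework 1 to framework 3, varied within each clone. In mouse 29, 227 of 233 contigs with the clone segment (97.4%) carried the commonest V sequence and 6 different sequences were found. In mouse 33 the commonest V sequence made up 110 of 416 contigs (26.4%) among 63 different sequences. Mice 27, 31 and 34 lay between them, with 63.4%, 75.5% and 73.8% of contigs on the commonest sequence.

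In coordinates of GRCm38.p6 from RefSeq, the build named in the submitters' processing notes being GRCm38 (mm10), Ighv9-1 lies on chromosome 12 from 114093928 to 114094221, Ighv9-3 from 114140692 to 114141122, Ighv1-18 from 114682632 to 114682925, Ighv1-75 from 115833950 to 115834243 and Ighv1-85 from 116000028 to 116000321. Higher positions lie farther from the D and J segments. Ighv9-1 had 44 segments nearer to D and J than itself, while Ighv1-85 had 179 nearer and 1 farther.

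The 7 RNA libraries held 77442 cells, of which 75503 passed the limits on UMIs, genes and mitochondrial UMIs, with 19264039 to 123456962 UMIs per library. Between 704 and 1266 barcodes of a library (8.23% to 9.38%) also occurred in another library. Cells outside the receptor calls were grouped by marker genes: B-gene cells by a list of B cell genes that includes Cd79a, Cd79b and Ms4a1, Cd3 cells by Cd3d, Cd3e and Cd3g, and myeloid-gene cells by Lyz2, Csf1r, C1qa and S100a8. Of the clone cells, 95.3% to 99.8% met the B-gene rule. Doublets were not removed. The sources name different kits, 1 reading the 5′ end and 1 the 3′ end of transcripts, so how far a UMI on a V segment rests on reads of the segment itself was not settled.

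Ighv transcripts were far more abundant in clone cells than in cells that should lack them. In the clone of mouse 27 the members summed to 2650 CPM (counts scaled to the summed UMIs of the cells, 95% Poisson interval 2626 to 2674). The clone of mouse 29 held 376 CPM (357 to 395), that of mouse 31 held 417 CPM (411 to 423), that of mouse 33 held 815 CPM (801 to 829), and that of mouse 34 held 2382 CPM (2360 to 2405). Mice 27 and 34 were the high pair, and their intervals did not meet. In Cd3 cells the same sum was 53.7, 22.2, 24.5, 33.4 and 36.7 CPM in mice 27, 29, 31, 33 and 34, and in myeloid-gene cells it was 24.6, 13.8, 16.0, 28.9 and 10.3 CPM. These intervals cover counting error only. In the TCR nodules the Cd3 cells held 6.07 CPM in mouse 30 and 1.94 CPM in mouse 32, below the Cd3 cells of every BCR nodule. The high level was not particular to the clones. Cells with a BCR contig outside the clone held 43017, 5591, 17181 and 2419 CPM in mice 29, 31, 33 and 34. These values rest on few cells, and in mouse 34 the interval (2231 to 2619) overlapped that of the clone. B-gene cells without a contig held 1684, 823, 208, 705 and 1841 CPM in mice 27, 29, 31, 33 and 34. Only in mouse 29 was this above the clone.

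**Figure D1:**
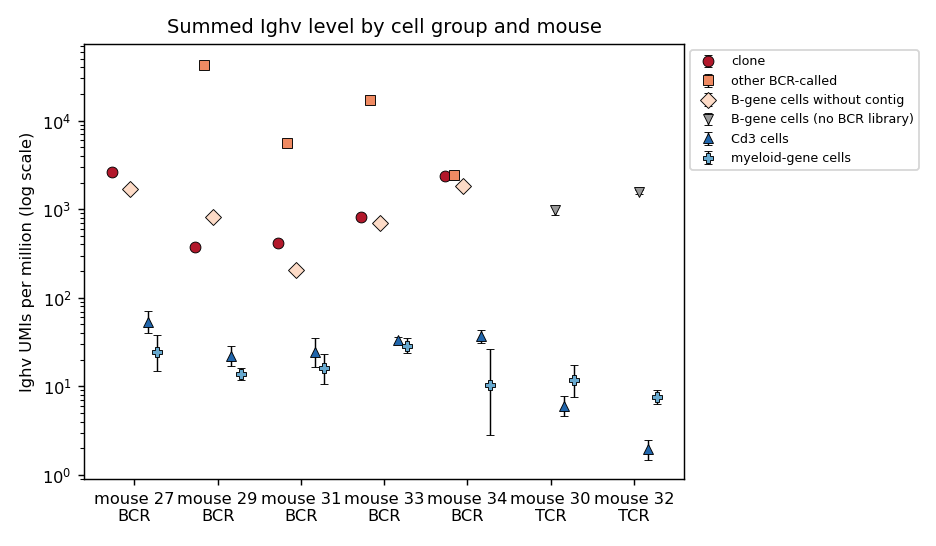
Summed Ighv level in CPM (log axis) for each cell group in the 5 BCR and the 2 TCR mice, with 95% Poisson intervals. Clone cells lie between 376 and 2650 CPM, and Cd3 cells between 1.94 and 53.7 CPM. BCR-called cells outside the clone lie between 2419 and 43017 CPM.

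The share of clone cells with any Ighv UMI was 99.9%, 86.4%, 93.6%, 94.6% and 100% in mice 27, 29, 31, 33 and 34, at median depths of 9367 to 13763 UMIs per cell. In Cd3 cells it was 10.2%, 5.28%, 4.94%, 10.6% and 7.88% at median depths of 1678 to 4038 UMIs. With each cell thinned to 1000 UMIs, the clone shares were 84.6%, 22.1%, 34.5%, 49.5% and 88.4%, and the Cd3 shares were 5.19%, 3.14%, 2.55%, 3.16% and 3.46%. The thinning left out 0 to 2 shallower clone cells and 20 to 152 shallower Cd3 cells per mouse. The clone of mouse 29, with a median of 2 Ighv UMIs per cell, had the lowest share with and without thinning.

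The clone segment itself was read directly in these RNA libraries. For Ighv1-75 the level in mouse 27 was 2566 CPM among clone cells, while Cd3 cells had 51.6 CPM. For Ighv1-85 it was 372 CPM against 1.39 CPM (mouse 29), the second value resting on 4 UMIs. For Ighv1-18 it was 414 CPM against 19.6 CPM (mouse 31). Ighv9-3 had 678 CPM against 24.2 CPM (mouse 33), and Ighv9-1 had 1790 CPM against 23.5 CPM (mouse 34). The log2 ratio was positive in 5 of 5 mice, with a mean of 5.83 ± 1.44 (SD, n = 5) and a range of 4.40 to 8.06. The clone was chosen by contigs that carry this segment, so the direction was fixed by that choice and the ratio is given as a description with no test.

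Single cells weighed on 1 of these values. One clone cell of mouse 29 held 508 UMIs of Ighv1-85 together with 141 UMIs of the plasma cell genes Jchain, Mzb1, Sdc1 and Xbp1, against a median of 3 plasma cell gene UMIs in that clone. Without this cell, a comparison chosen after seeing the data, the level of Ighv1-85 in the clone was 242 CPM. In the other clones, leaving out the highest cell left the level at 2534, 412, 663 and 1781 CPM in mice 27, 31, 33 and 34.

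The few Ighv UMIs of Cd3 cells did not always follow the clone. Ighv1-75 made up 48 of 50 such UMIs (96.0%) in mouse 27. Ighv1-18 made up 24 of 30 (80.0%), Ighv9-3 398 of 549 (72.5%) and Ighv9-1 80 of 125 (64.0%), each in its own nodule. In mouse 29, Ighv1-85 made up 4 of 64 (6.25%, 95% Clopper-Pearson interval 1.73 to 15.2). Mouse 29 was also the nodule whose BCR-called cells outside the clone held the most Ighv UMIs, 10493 in 41 cells against 1464 in 323 clone cells.

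Most Ighv UMIs of a clone fell on its own segment, which the choice of the clone by its contigs fixes in part, so the shares are a description. Ighv1-75 took 96.8% of 48171 UMIs (95% Clopper-Pearson interval 96.7 to 97.0), Ighv1-85 took 99.0% of 1464 (98.4 to 99.5) and Ighv1-18 took 99.4% of 20238 (99.2 to 99.5). Ighv9-3 took 83.3% of 13533 UMIs (82.6 to 83.9) and Ighv9-1 took 75.2% of 41459 (74.7 to 75.6). The mean was 90.7% ± 10.9 (SD, n = 5). The 3 clones on family 1 segments lay above the 2 clones on family 9 segments.

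**Figure D2:**
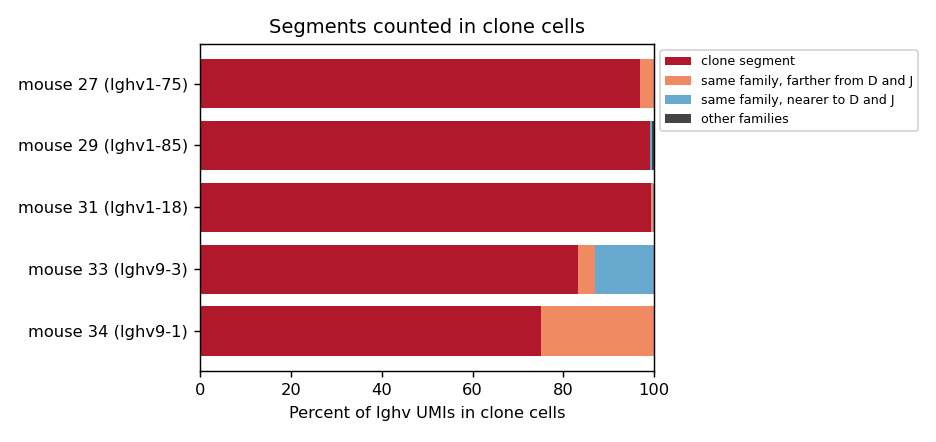
Percent of the Ighv UMIs of clone cells on the clone segment, on other segments of its family and on other families, 1 bar for each BCR mouse. The clone segment takes 75.2% to 99.4%, and the rest is visible mainly in mice 33 and 34.

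In mice 27, 33 and 34 nearly all remaining UMIs lay on other segments of the clone segment's family. In mouse 27, Ighv1-76, which lies 13.9 kb from Ighv1-75, held 1399 UMIs (2.90% of the Ighv UMIs). In mouse 33, Ighv9-1 held 1712 UMIs (12.7%) and Ighv9-4 held 505 (3.73%). In mouse 34, Ighv9-2 held 6649 UMIs (16.0%), Ighv9-3 held 3055 (7.37%) and Ighv9-4 held 584 (1.41%). Mice 29 and 31 had no other segment at 1% or more.

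Family 9 has 4 members in the gene table and family 1 has 93. Segments of the clone segment's family took 1517 of the 1524 other UMIs (99.5%) for the Ighv1-75 clone, 7 of 14 (50.0%) for the Ighv1-85 clone and 107 of 131 (81.7%) for the Ighv1-18 clone. They took 2256 of 2266 (99.6%) for the Ighv9-3 clone and 10288 of 10302 (99.9%) for the Ighv9-1 clone. Among BCR-called cells outside the clone, the same families took 62.6%, 82.7%, 0.768% and 5.80% of the UMIs off the clone segment in mice 29, 31, 33 and 34. The family share was thus higher in the clone than outside it in mice 33 and 34, lower in mouse 29 and within 1 percentage point of it in mouse 31, and these differences were not tested. The shares outside the clone rest on few cells. The highest cell held 19.0%, 79.4%, 38.5% and 9.79% of the Ighv UMIs of the cells outside in mice 29, 31, 33 and 34. In mouse 31 that cell was led by Ighv1-9, of the clone segment's family. In Cd3 cells family 9 took 79 of 151 such UMIs in mouse 33 and 36 of 45 in mouse 34.

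The related segments were counted in cells that also held the clone segment. All 464 clone cells of mouse 27 with an Ighv1-76 UMI also had an Ighv1-75 UMI, and all 1017 clone cells of mouse 34 with an Ighv9-2 UMI also had an Ighv9-1 UMI. In mouse 33, 11 of 690 cells with an Ighv9-1 UMI had no Ighv9-3 UMI. How the counting shared reads between segments of a family was not tested, so these values are uncertain as measures of each segment.

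The side of the locus differed between clones. In mouse 34 the segments farther from D and J than Ighv9-1 held 10296 UMIs and the nearer ones 6. All other family 9 segments lie farther than Ighv9-1 and held 10288 of these UMIs. The side was thus fixed in advance for UMIs on relatives of this clone segment. In mouse 27 the farther segments held 1492 and the nearer ones 32, and in mouse 31 the counts were 105 and 26. In mouse 33 the order was the other way, with 513 UMIs farther and 1753 nearer, of which Ighv9-1 gave 1712. Mouse 29 had 0 UMIs farther and 14 nearer, with only 1 segment on the farther side. The nearer side is the DNA removed from the rearranged allele, and whether the second allele was rearranged was not tested. In mouse 31, the pseudogene Ighv1-21-1 had 29 UMIs and the pseudogene Ighv7-1, of another family, had 24, both named here after their values were seen.

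**Figure D3:**
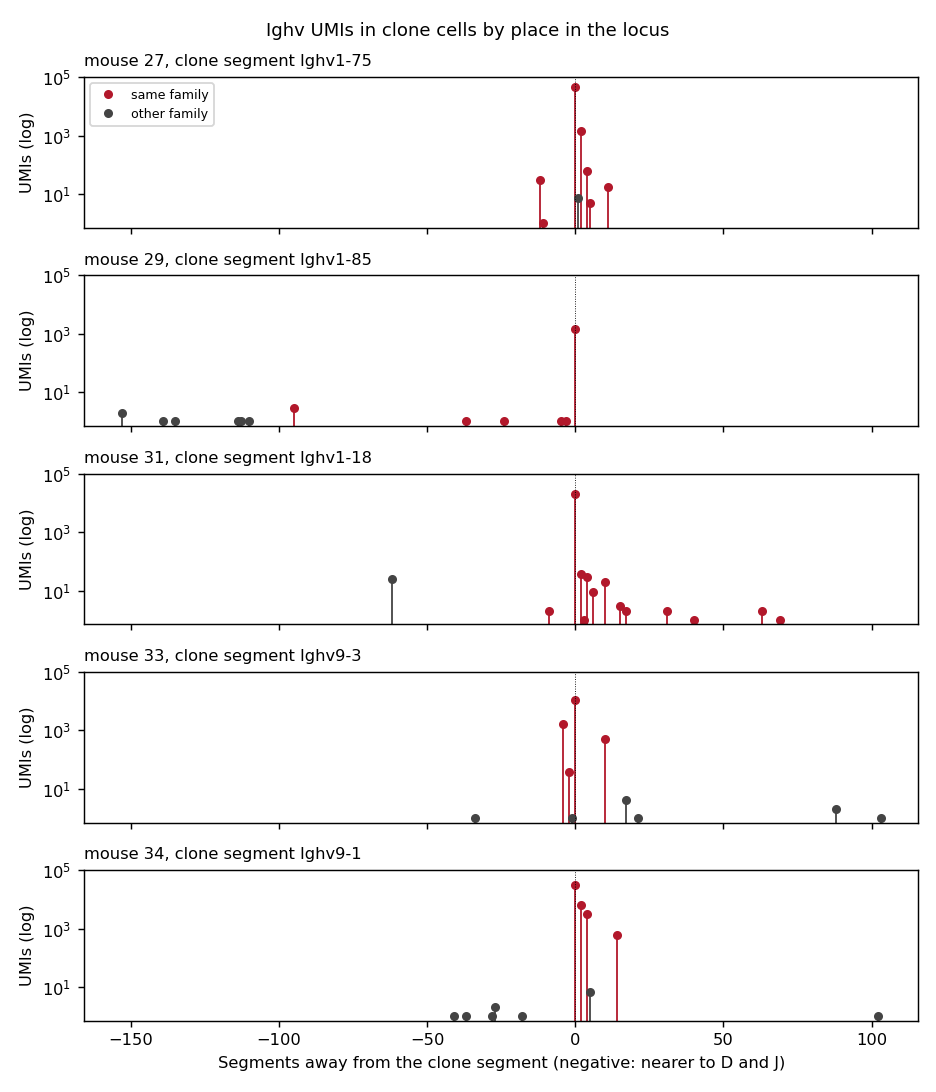
UMIs of each segment in clone cells (log axis) against the number of segments between it and the clone segment, which is at 0, with negative values nearer to D and J, 1 panel for each BCR mouse. Most UMIs of relatives lie on the farther side in mice 27, 31 and 34, on both sides in mouse 33 and on the nearer side in mouse 29, where 1 segment lies farther.

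Within the clone of mouse 34 the count on Ighv9-2 depended on which heavy chain contig a cell carried. The 2 commonest CDR3 sequences are called heavy chains A and B, both 24 bases long. The V parts below are the commonest in cells with only chain A (693 of 782 contigs) and in cells with only chain B (68 of 182 contigs), shown because the counts of Ighv9-2 split along them. They differ at 11 of 285 bases (96.1% identity), which are in capitals in both, with 3 in framework 1, 1 in CDR2 and 7 in framework 3.
mouse 34, heavy chain A: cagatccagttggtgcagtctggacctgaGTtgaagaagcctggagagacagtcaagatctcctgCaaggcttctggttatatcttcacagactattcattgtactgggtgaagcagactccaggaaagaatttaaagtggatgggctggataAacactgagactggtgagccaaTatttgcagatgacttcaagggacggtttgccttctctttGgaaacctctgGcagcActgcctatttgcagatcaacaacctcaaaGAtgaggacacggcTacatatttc
mouse 34, heavy chain B: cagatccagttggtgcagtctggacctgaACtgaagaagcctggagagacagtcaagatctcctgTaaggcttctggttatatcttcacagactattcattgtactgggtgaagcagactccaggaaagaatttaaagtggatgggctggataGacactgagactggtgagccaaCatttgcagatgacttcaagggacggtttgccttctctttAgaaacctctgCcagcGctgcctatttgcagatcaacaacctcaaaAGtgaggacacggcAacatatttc

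In 727 cells with only chain A, Ighv9-2 took 4334 of 20521 Ighv UMIs, or 21.1% (95% Clopper-Pearson interval 20.6 to 21.7). In 180 cells with only chain B it took 29 of 4878, or 0.595% (0.399 to 0.853). In 306 cells with both chains it took 19.0% (18.3 to 19.7). The intervals of chain A and chain B were far apart, at median depths of 11203 and 9864 UMIs per cell. Among cells with at least 5 Ighv UMIs, the median cell had 21.7% of them on Ighv9-2 with chain A and 0% with chain B, and 157 of 180 chain B cells had no Ighv9-2 UMI against 31 of 727 chain A cells.

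Ighv9-4 split the same way, with 1.75% of Ighv UMIs in chain A cells and 0.246% in chain B cells. Ighv9-3 did not split by this much, at 7.40% and 6.50%. The contigs went the other way from the RNA counts. All 782 chain A contigs of chain A cells were called Ighv9-1, whereas of 182 chain B contigs 156 were called Ighv9-1, 25 Ighv9-2 and 1 Ighv9-3. All of these cells came from 1 mouse, so no test across mice was possible. Its sample is labelled lung and thymus, and whether the chains differ by site cannot be told.

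Cells with both chains resembled chain A cells in sequence as well. Of their 306 chain B contigs, 207 had a V part identical to the commonest V part of chain A, which 0 of the 182 contigs of chain B cells had. Chain B contigs had a median of 6 UMIs in cells with both chains and 26 UMIs in chain B cells. In mouse 27 the same split by CDR3 gave 2.96% and 2.23% for Ighv1-76, and in mouse 33 it gave 12.7% and 13.5% for Ighv9-1.

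**Figure D4:**
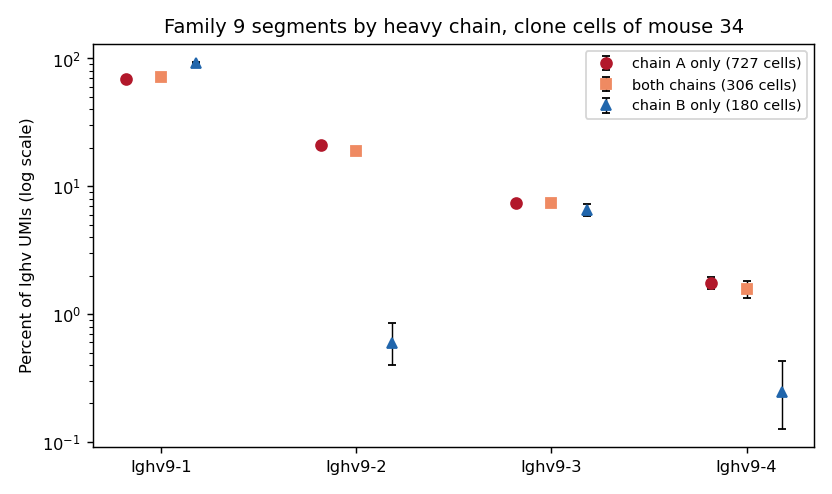
Percent of Ighv UMIs (log axis) on the 4 family 9 segments in clone cells of mouse 34 with only chain A, both chains or only chain B, with 95% Clopper-Pearson intervals. Ighv9-2 is at 21.1% in chain A cells and 0.595% in chain B cells.

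The segment that led the RNA counts of a cell, with at least 2 UMIs and more than any other member, was compared with the V segment of its heavy chain contig. The 2 libraries of a nodule share their cells. Whether both were made from the same captured transcripts is not settled here, so they may not be independent measurements. Both named the same segment in 1148 of 1150 clone cells of mouse 27 (99.8%) and 197 of 197 of mouse 29 (100%). They did so in 3273 of 3275 clone cells of mouse 31 (99.9%), 409 of 410 of mouse 33 (99.8%) and 1234 of 1271 of mouse 34 (97.1%). Of the 37 cells of mouse 34 that did not match, 33 had a contig called Ighv9-2 and 4 a contig called Ighv9-3, all with Ighv9-1 leading the RNA.

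BCR-called cells outside the clone matched in 18 of 20 cells of mouse 29 (90.0%), 20 of 22 of mouse 31 (90.9%), 11 of 12 of mouse 33 (91.7%) and 22 of 23 of mouse 34 (95.7%). Some of these cells used the clone segment with another CDR3 or J segment. It was the segment of 0 of 26, 2 of 34, 7 of 15 and 8 of 23 of their heavy chain contigs in mice 29, 31, 33 and 34. Clone cells were higher by 7.14 ± 3.88 percentage points (SD, n = 4 mice) and higher in 4 of 4 mice. An exact two-sided sign-flip test gave p = 0.125, the smallest p that 4 mice allow. Clone cells that entered by their heavy chain have the clone segment as contig segment by definition. No such rule held for the other cells, so the choice of the clone fixes this difference in part and the test supports nothing. With only contigs of at least 3 UMIs the difference was 2.98 points (p = 0.25, exact), and with segments of the same family counted as agreement it was 3.16 points (p = 0.5, exact). Of the 6 mismatches outside the clone, 4 were between segments of the same family.

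Clone cells without a heavy chain contig entered the clone through their light chain alone. Where a segment led their RNA counts, it was nearly always the clone segment. Of 2077 such cells, 1496 had a leading segment, and in 1490 it was the clone segment. A leading segment was found in 619 of 629 cells in mouse 27, 524 of 672 in mouse 33 and 143 of 145 in mouse 34. It was found in only 22 of 90 in mouse 29 and 188 of 541 in mouse 31, so most such cells there could not be read. The segment of these cells was not used to place them in the clone.

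Many B-gene cells had no contig at all, and the RNA counts gave their segment. Of 14696 such cells in the 5 BCR nodules, 9113 had a leading segment and 9051 were led by the clone segment. The contigs placed 8579 cells in the clones. By mouse (27, 29, 31, 33 and 34), the clone segment led 2647, 383, 983, 2302 and 2736 cells without a contig. The contigs placed 1782, 323, 3974, 1084 and 1416 cells in these clones, the larger number only in mouse 31. The share among cells with a leading segment was 99.5%, 97.7%, 99.1%, 99.4% and 99.4% in mice 27, 29, 31, 33 and 34, with a mean of 99.0% ± 0.750 (SD, n = 5). Of all B-gene cells without a contig, cells with or without a leading segment, the clone segment led 28.2% (mouse 31) to 80.4% (mouse 34).

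These cells were shallower than clone cells, with median depths of 4659, 7425, 3900, 8182 and 5419 UMIs in mice 27, 29, 31, 33 and 34 against 9367, 11273, 11199.5, 13763 and 11279.5 UMIs in clone cells. Those without a leading segment had medians of 1521 to 6483 UMIs. The part that free RNA has in these counts was not tested. The source of the Ighv UMIs of Cd3 cells was not tested either. A single Cd3 cell held 20% of them in mouse 27 and 17.6% in mouse 34, and doublets were not removed. The median count of the clone segment in the cells it led was 9, 3, 2, 5 and 8 UMIs.

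B-gene or BCR-called cells outside the clone and led by another segment were few, at 13, 30, 32, 21 and 32 cells in mice 27, 29, 31, 33 and 34, and used 36 segments. In mouse 27 all 13 were led by Ighv1-76, the close relative of the clone segment. In mouse 33 Ighv9-1 led 12 of 21 and in mouse 34 Ighv9-2 led 15 of 32, again relatives of the clone segment. By mean share over the 5 mice the leading segments were Ighv1-76 (21.3%), Ighv9-1 (12.1%), Ighv9-2 (9.38%), Ighv5-17 (8.29%) and Ighv5-6 (6.29%). The first 3 rest on single nodules, since Ighv1-76 led 13 cells in mouse 27 and 1 each in mice 29 and 31, Ighv9-1 led 12 in mouse 33 and 1 in mouse 31, and Ighv9-2 led cells in mouse 34 alone. Ighv5-17 led 13 cells in 2 mice and Ighv5-6 led 10 cells in 3 mice.

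The high counts outside the clones sat in few cells. In the BCR nodules 28 such cells held at least 100 Ighv UMIs, 22 of them in mouse 29, 5 in mouse 33 and 1 in mouse 31. They carried 17 to 678 UMIs of the plasma cell genes, against medians of 2 to 4 in the remaining cells of each nodule. The highest cell of mouse 29 held 1990 Ighv UMIs and the highest of mouse 33 held 1905.

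**Figure D5:**
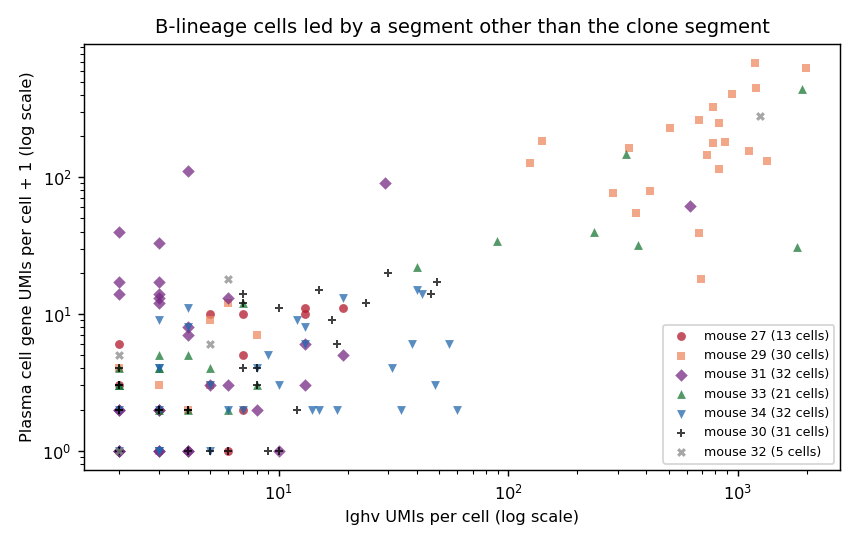
Ighv UMIs against plasma cell gene UMIs (1 added) per cell, both on log axes, for B-gene or BCR-called cells outside the clone led by a segment other than the clone segment, 1 point per cell. Cells with at least 100 Ighv UMIs come mainly from mouse 29 and hold 17 or more plasma cell gene UMIs.

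Clone cells were compared with the other BCR-called cells of the same nodule over all genes, on UMIs summed per mouse and cell group. The fit took mice 29, 31, 33 and 34, with 41, 42, 32 and 24 cells outside the clone. At an adjusted p under 0.05 in edgeR's quasi-likelihood test, 28 of 10774 genes tested (0.26%) were called, 4 higher and 24 lower in the clone. None was higher without mouse 33 or without mouse 34, and 12 were higher without mouse 29. Of the 185 members 17 passed the filter on low counts, and 8 were called, all lower in the clone, where the share of all genes called higher was 0.0371% and lower 0.223%. The contigs that define the 2 groups also fix which segments differ, so the calls on members are a description and support nothing.

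The 8 members were Ighv1-82, Ighv1-9, Ighv2-5, Ighv3-6, Ighv5-6, Ighv5-17, Ighv11-2 and Ighv12-3. Ighv1-82 had 3258 UMIs outside the clone in mouse 29, 44 in mouse 34 and none in mice 31 and 33, against 1 UMI in the clones. Ighv12-3 had 2034 of its UMIs outside the clone in mouse 33. Much of this lay in single cells. In mouse 29, cells led by Ighv1-82 held 1990 and 943 Ighv UMIs. In mouse 33, a single cell led by Ighv12-3 held 1905, another led by Ighv2-5 held 1813 and another led by Ighv3-6 held 368. In mouse 31, a single cell led by Ighv1-9 held 622. The counts of these members outside the clone thus rest on few cells. The clone segments were not called, with adjusted p = 0.872 for Ighv1-18, 0.423 for Ighv1-85, 0.736 for Ighv9-3 and 0.704 for Ighv9-1, each being a clone segment in 1 of the 4 mice. Among the cells outside the clone, the clone segment led 3 of 41, 1 of 42, 19 of 32 and 9 of 24, and without these 118 genes were called. Without the mouse block, edgeR called 0 genes, with 671 of 9232 at an unadjusted p under 0.05, and it also called 0 on the 10774 genes of the blocked fit, with 856 at that p.

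Of the 8 heavy chain constant genes 5 were tested and 2 were lower in the clone. Ighm, the constant gene of IgM, had 34, 16, 17 and 25 UMIs in the clones of mice 29, 31, 33 and 34 and 6403, 23, 2810 and 41 UMIs outside (adjusted p = 0.0069 in edgeR). Outside the clone, all heavy chain constant genes summed to 6737 UMIs in mouse 29 and 2830 in mouse 33. Most of these UMIs sat in the cells with at least 100 Ighv UMIs described above, with up to 1089 and 852 in a single cell. The high Ighm counts outside thus rest on few cells in mice 29 and 33. Ighg1 had 1 UMI in the clone of mouse 31 and none in the other clones, and outside the clone 18 UMIs in mouse 31 and 4 in mouse 34 (adjusted p = 0.0457 in edgeR). Ighe had 702, 10299, 2134 and 2083 UMIs in the 4 clones and 169, 12, 16 and 15 outside (adjusted p = 0.795 in edgeR). Per summed UMIs, clone cells of mouse 29 held less Ighe (180 CPM) than its other BCR-called cells (693 CPM), while in the other 3 mice the clone held more. Of the 14 genes of V(D)J recombination and somatic hypermutation, 11 were tested and none was called in either direction. Ung, which removes uracil from DNA, had adjusted p = 0.244. Of 160 Igkv light chain segments 23 were tested and 9 were lower, and of 3 Iglv segments 3 were tested and none was called. Of all genes tested, 0.223% were called lower. Light chain contigs also define the 2 groups, so the calls on Igkv segments are a description and support nothing.

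Each clone segment was read mainly in its own nodule. Over all kept cells, Ighv1-75 had 1839 CPM in mouse 27 and 0 UMIs in the other 6 libraries. Ighv1-85 had 61.2 CPM in mouse 29 and at most 0.0163 CPM elsewhere. Ighv1-18 had 326 CPM in mouse 31 and 23.4 CPM in mouse 29, where cells outside the clone used it. Ighv9-3 had 414 CPM in mouse 33 and 135 CPM in mouse 34, and Ighv9-1 had 1344 CPM in mouse 34 and 62.2 CPM in mouse 33, the clone of each being on the other's relative.

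The TCR nodules held 1988 Ighv UMIs against 248297 in the BCR nodules. Mouse 32 had 23 B-gene cells, of which 5 had a leading segment, each a different one, among them Ighv1-11, Ighv1-41, Ighv1-61 and Ighv1-9. A single cell led by Ighv1-11 held 1249 of the 1503 Ighv UMIs of that library (83.1%), with 280 plasma cell gene UMIs. Mouse 30 had 51 B-gene cells, and Ighv1-81 led 28 of the 31 with a leading segment. Its level was 926 CPM (95% Poisson interval 827 to 1034) in B-gene cells and 2.71 CPM (1.81 to 3.89) in Cd3 cells.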

How the data were processed

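RNA and V(D)J libraries of 7 nodules were analysed. Per the labels, V(D)J libraries were made with a 5′ kit, the only kit they name. In the study's methods, the section that covers the nodules gives a 3′ kit for scRNA-seq, so the end of the transcript read in the RNA libraries was not settled. The authors deposited raw UMI counts per gene and cell without normalization, and contig tables with UMI counts per contig, assembled with SeekSoulTools vdj according to the study's methods. The submitters' processing notes name the builds GRCm38 and mm10. The aligner and gene annotation of the RNA counts are not given in the sources used here. Coordinates come from RefSeq (GRCm38.p6), in which all 183 symbols matched, and 2 symbols with 2 gene IDs each were given none.

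Cells needed at least 201 UMIs, 101 genes and at most 10% mitochondrial UMIs. B-gene and Cd3 cells needed at least 2 UMIs of their marker genes and more than of the other list, and myeloid-gene cells at least 3. Intervals are 95% Clopper-Pearson or exact Poisson intervals and cover counting error only. Shares were thinned exactly (hypergeometric) to 1000 UMIs per cell. A count of 0 was read against a floor of 3 counts.

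Summed counts per mouse and cell group were tested with edgeR 4.0.16 (R 4.3.3; TMM, filterByExpr, quasi-likelihood F-test, mouse as block, Benjamini-Hochberg over all genes tested), with DESeq2 1.42.0 as an alternative. Both groups of cells came from the same mouse, and the deviations of same-mouse sums from their group means correlated at 0.415, 0.213, 0.441 and 0.301 in mice 29, 31, 33 and 34. Tested on simulated counts for 9092 genes, the fit recovered 76 of 198 genes changed 4-fold, with 1 false call. The simulation gave every mouse the same gene means and every gene the same spread, with no mouse effect. Its recovery and false calls may therefore not hold for these data. Python 3.11.15 with numpy, scipy and pandas made the other values.

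Members named are the clone segments, segments with at least 1% of the Ighv UMIs of a clone, the 5 that led most other B cells in the BCR mice and in the TCR mice, and those past an adjusted p of 0.05. Some genes of the fixed lists are not reported here by name. Members and lists were chosen with earlier results of these data known. Alternatives covered the leading segment limit, the contig limit, cell rules, normalization, filter, block and leaving out each mouse.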

Additional observations from a re-analysis of the deposited data

Results flagged for a closer look

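B cells of the TCR nodule of mouse 30 carried a dominant Ighv segment, in a nodule with no BCR library. Ighv1-81 (GRCm38.p6 chromosome 12, 115920279 to 115920572) led 90.3% of its B-gene cells with a leading segment (28 of 31, 95% Clopper-Pearson interval 74.2 to 98.0). Counting all cells, it led 35, which had a median of 7 Ighv UMIs (2 to 49) and no UMI of another member. These 35 cells held 299 Igkv UMIs, all on Igkv4-63, which led 24 of them. They also held 58 UMIs of Igha, 0 of Ighm, 85 of Mki67 and 124 of Mzb1. Ighv1-81 is among the segments named by the fixed rule, whereas Igkv4-63 and Mki67 were chosen after their values were seen. The other 10448 kept cells held 18 UMIs of Ighv1-81 and 29 of Igkv4-63. A TCR contig was found in 2 of the 35 cells, and 3 met the Cd3 rule.

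In 11 sets of values over the BCR mice, a sample far from the others was found 2 times, where chance flags about 1 set in 20. Agreement of RNA and contig segment in clone cells was 97.1% in mouse 34, below the other 4 mice. The share of B-gene cells without a contig that the clone segment led was 97.7% in mouse 29, below the other 4 mice, where of 392 cells with a leading segment 4 had another segment of its family and 5 a segment of another family.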

How the results depend on the processing

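Of 72 alternative values none reversed, which a share or a count could not do, having no direction. Some alternatives left a value unchanged. Taking all deposited cells gave the same agreement difference and the same clone segment share. Mouse 27 had no BCR-called cells outside the clone, so leaving it out did not change the agreement difference. The number of values that stayed the same was thus fixed in part in advance. A tested difference was held to its direction, a share to 1 SD over mice and a count to 1.5 times, and 56 stayed within these limits. The agreement difference kept its direction but fell from 7.14 to 2.98 points with contigs of at least 3 UMIs and to 3.16 with family agreement (p = 0.25 and 0.5, exact sign-flip test). B-gene cells without a contig were led by the clone segment in 97.7% when 1 UMI made a leading segment and in 97.3% when 5 were needed, against 99.0%. The 36 segments leading other B cells became 23 when 5 UMIs were needed and 22 without the family of the clone segment. Clone against other BCR-called cells gave 28 calls, which became 249 with DESeq2, 158 with no filter on low counts and 118 without other cells led by the clone segment (added after seeing the data). All 28 calls were among the 158 and among the 118, and 20 were among the 249. With the mouse pairing removed (no replicate block) 0 genes were called, and 671 of 9232 had an unadjusted p under 0.05. On the 10774 genes of the blocked fit (added after seeing the data) it was 0 as well, with 856. Leaving out 1 mouse gave 20 to 49 calls, with 49 without mouse 29 and 45 without mouse 31, and 15 to 20 of the 28 were among them. Of 17 members tested 8 were called, against 5 of 12 without mouse 33 and 20 of 71 with no filter. Without the block it was 0 of 2, and 0 of 17 on the genes of the blocked fit, 11 of them at an unadjusted p under 0.05. The level of Ighv1-85 in the clone of mouse 29 fell from 372 to 242 CPM without 1 cell. Leaving out 1 mouse moved the agreement difference between 6.19 and 9.04 points, the clone segment share between 88.6% and 94.6%, the log2 ratio to Cd3 cells between 5.27 and 6.19 and the share of B-gene cells without a contig between 98.9% and 99.3%. The cause of these changes was not tested. The family defined by at least 85% sequence identity was not run, since no germline segment sequences were used here.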
